A study of Mus musculus with 10 samples.

Results

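Lipolysis, the breakdown of stored triglyceride, was followed here through the transcripts of 9 genes: the lipases Pnpla2, Lipe and Mgll, their regulators Abhd5, G0s2 and Plin1, the β-adrenergic receptors Adrb3 and Adrb1, and the cyclic AMP phosphodiesterase Pde3b. The genes were chosen by symbol from a count table of 56748 genes, and all 9 were present and were among the 14270 genes with enough counts to test. The question was whether the transcripts of the lipolytic machinery differed between cultures with and without an adipocyte-driven deletion of Fam20c, which encodes a secretory-pathway serine/threonine kinase that the study linked to phosphorylation of PNPLA2 and to lipolysis.

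The data were bulk RNA-seq of primary adipocytes, with 5 control libraries (Fam20c-flox, which carry the floxed allele without Cre) and 5 Ad-Fam20c–KO libraries (Fam20c-flox/Adipoq-Cre). Both groups were grown from the stromal vascular fraction of inguinal fat, which was taken from male mice aged 6 to 8 weeks and driven to adipocytes over 6 to 8 days with insulin, IBMX, dexamethasone and rosiglitazone. Both groups thus shared the floxed allele and the differentiation treatment. The Adipoq promoter drives Cre once a cell has become an adipocyte, so the other cells of the fraction keep the gene. The labels do not say whether the 5 libraries of a group came from separate animals or cultures, and p-values measure only the spread between these libraries.

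In adipocytes, triglyceride is cut in sequence. PNPLA2 (ATGL) removes the first fatty acid and needs the co-activator ABHD5, LIPE (hormone-sensitive lipase) cleaves the diglyceride, and MGLL cleaves the last ester bond to release glycerol. At rest PLIN1 coats the droplet and holds ABHD5 away from PNPLA2, and G0S2 inhibits PNPLA2. Catecholamines act through β-adrenergic receptors, cyclic AMP and protein kinase A, which phosphorylates PLIN1 and LIPE, and insulin opposes this by activating PDE3B, which degrades cyclic AMP.

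Total counts were 18949106 to 26237825 per library. Fam20c itself, in counts scaled to a common library size (CPM), stood at 8.86, 10.3, 11.9, 9.09 and 11.2 in control replicates 1 to 5 and at 6.65, 7.29, 7.11, 7.70 and 7.74 in KO replicates 1 to 5. The groups did not overlap, and the transcript fell by 28.9% (log2 fold change -0.49), with a standard error (SE) of 0.093 and an adjusted p of 0.0137 from edgeR's quasi-likelihood fit (Benjamini-Hochberg over all genes tested). The fall was thus partial, and the counts are summed over the whole gene, which does not isolate the floxed exons. The labelled cell type matched its markers: 11 adipocyte markers, among them Adipoq and Slc2a4, summed to 18251 to 18662 CPM in control and 17813 to 18279 CPM in KO libraries, and 0 of 11 passed the test (2.17% of all genes did). Endothelial markers summed to 186 to 233 CPM in control and 80.7 to 120 CPM in KO libraries with no overlap, and 11 of 14 fell. Of the progenitor markers, 2 of 11 fell (Cd34 and Pdgfra, with log2 fold changes of -0.91 and -0.31), where 1.86% of all genes fell. The median log2 fold change was -1.22 over the endothelial list and -0.17 over the progenitor list, so that Cd34 lay nearer the endothelial median. Of 11 macrophage, 7 pericyte and 4 Schwann cell markers tested, 0 passed, and the lymphocyte marker Cd3d was at 0 in every library. In bulk libraries, fewer cells of a type and less RNA per cell cannot be told apart. Control library 4 and KO library 1 stood apart from the others, with scores of 21.7 and 24.2 on the first principal component (23.5% of the variance) against -14.8 to 8.59 in the rest.

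The 9 genes spanned a wide range of levels. Compared per kilobase of exon (FPKM, the CPM divided by the gene's exon length in kilobases), Pnpla2 was the most abundant in control libraries at 867 ± 49.2 FPKM (SD, n = 5), followed by its inhibitor G0s2 at 745 ± 22.2, Plin1 at 245 ± 9.32 and Lipe at 189 ± 10.3 FPKM. Mgll stood at 113 ± 10.0, the co-activator Abhd5 at 101 ± 4.52, Pde3b at 72.3 ± 7.18, Adrb3 at 33.8 ± 3.95 and Adrb1 at 0.253 ± 0.0658 FPKM. In the control libraries only Mgll and Abhd5, as neighbours in this order, overlapped, and Mgll was still above Abhd5 within each of the 5 libraries. In KO libraries Abhd5 (106 ± 6.36 FPKM) and Mgll (104 ± 8.64 FPKM) stood in the reverse order and overlapped again, and Pnpla2 (928 ± 53.9 FPKM) overlapped G0s2 (819 ± 48.0 FPKM), although Pnpla2 was the higher in each of the 5 libraries. Adrb3, the β-receptor typical of mouse adipocytes, was 134 times as abundant per kilobase as Adrb1 in control libraries and 116 times in KO libraries. With the length of the longest transcript in place of all exons, Abhd5 (190.5 FPKM) stood above Mgll (144 FPKM) in control libraries too.

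**Figure D1:**
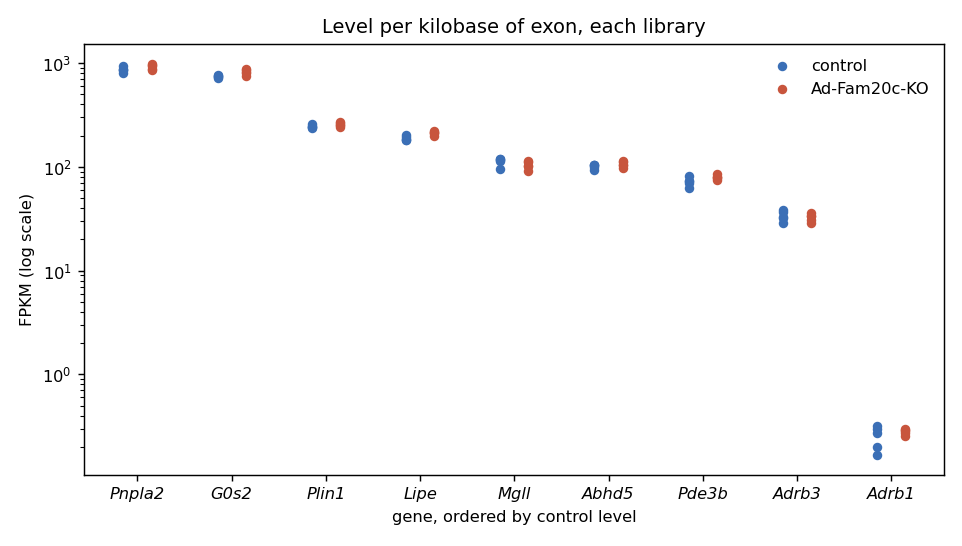
Level of the 9 lipolysis genes per kilobase of exon (FPKM, logarithmic axis) in each of the 5 control (blue) and 5 Ad-Fam20c–KO (red) libraries, with genes ordered by their control mean from Pnpla2 (867 FPKM) to Adrb1 (0.253 FPKM). The 2 genotypes sit side by side for every gene, and the step from Adrb3 to Adrb1 is the largest.

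None of the 9 transcripts passed the test between genotypes: 0 of 9 had an adjusted p under 0.05 in edgeR (Benjamini-Hochberg over all 14270 genes), where 2.17% of all genes did, and 0 of 9 had groups that did not overlap (3.97% of all genes). Of the 9, 2 had an unadjusted p under 0.05 (11.9% of all genes). The log2 fold change was above 0 for 7 genes and below 0 for 2, Mgll and Adrb3, with a median of 0.10 against -0.00085 over all genes tested, of which 49.7% were above 0. Leaving aside Adrb1, which rested on 13 to 23 counts per library, the 95% intervals reached no further than 21.4% above (Pde3b) and 17.3% below (Mgll) the control level. With DESeq2 and with limma voom, Lipe alone of the 9 passed. A further edgeR fit took the mean log2 CPM of the endothelial markers, whose sum did not overlap between genotypes, as a covariate. In it the log2 fold changes of Pnpla2 and Abhd5 turned to -0.30 and -0.38 and that of Mgll was -0.74. The adjusted p of the 9 genes (Benjamini-Hochberg) was 0.0688 to 0.942 in that fit. Control library 4 and KO library 1 had the highest endothelial sums of their groups (233 and 120 CPM). The same libraries had the lowest Pnpla2, Mgll and Abhd5 of their groups. The changes of sign therefore cannot be told apart from the effect of these 2 libraries, which was not tested.

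**Figure D2:**
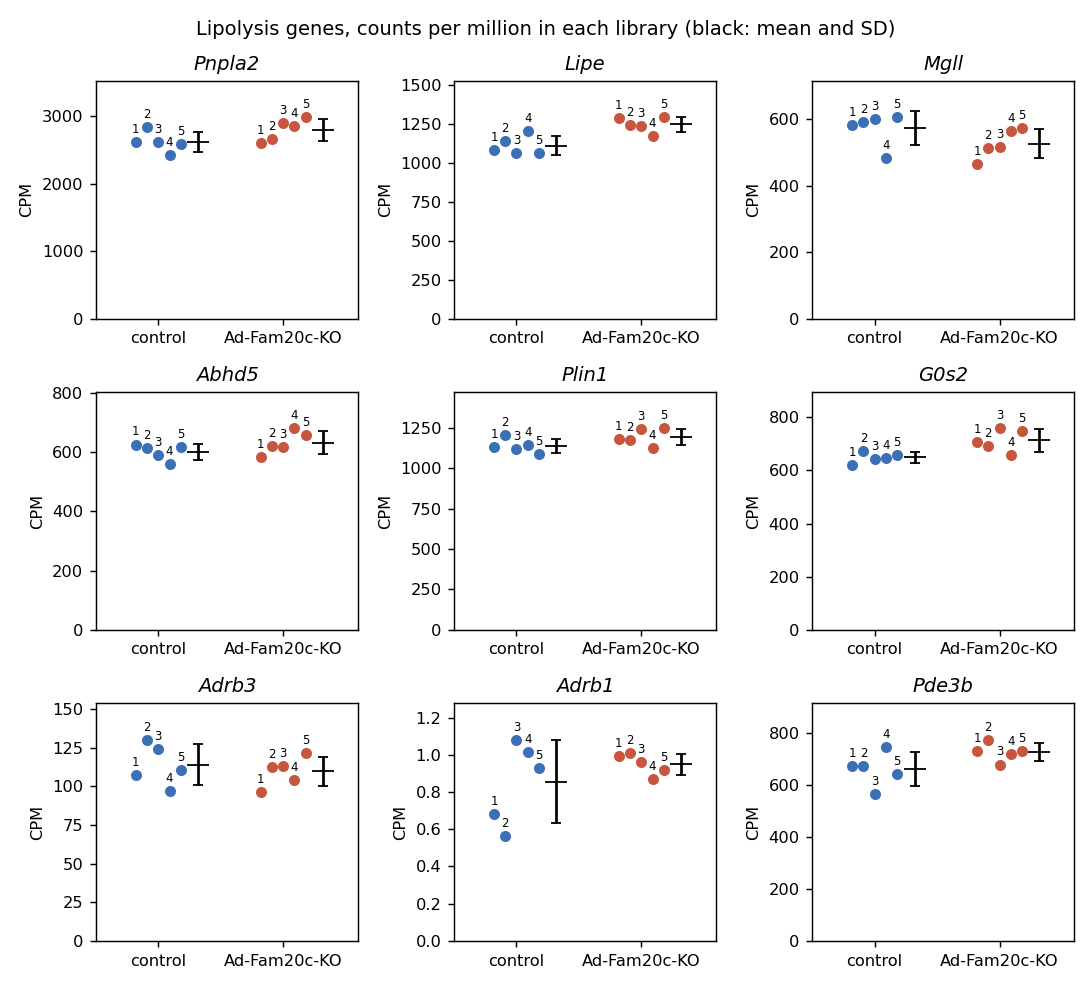
CPM of each lipolysis gene (vertical axes from 0) in control (blue) and Ad-Fam20c–KO (red) libraries, numbered by replicate, with the mean and SD of each group in black. The groups overlap for every gene, and 4 of the 5 KO libraries lie above the highest control library for Lipe and for G0s2.

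Among the lipases, Pnpla2 lies on the plus strand of chromosome 7 (141455198 to 141460743, GENCODE M21 on GRCm38, as for all positions here). Control libraries 1 to 5 stood at 2617, 2839.7, 2618, 2422 and 2591 CPM, and KO libraries 1 to 5 at 2599, 2667, 2899.8, 2856 and 2986 CPM. The KO libraries reached higher, with 3 of them above the highest control library, but the other 2 lay within the control range. The means were 2618 ± 149 and 2802 ± 163 CPM (SD, n = 5), and the log2 fold change was 0.10 (SE 0.055, edgeR Benjamini-Hochberg adjusted p = 0.539). The interval ran from 1.40% below to 16.2% above control. The gene for the enzyme that starts lipolysis was also among the most abundant of the whole table, at rank 25 by control CPM.

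Lipe, hormone-sensitive lipase, lies on the minus strand of chromosome 7 (25379527 to 25398710). Replicates 1 to 5 gave 1083, 1142, 1060.5, 1200.4 and 1063 CPM in control and 1289, 1240.1, 1237, 1174 and 1291 CPM in KO cultures. All 5 KO libraries were above the control median and 4 were above the highest control library, while KO library 4 lay below control library 4. The means were 1110.0 ± 60.4 and 1246 ± 47.9 CPM (SD, n = 5), 12.3% higher in KO with an interval from 4.66% to 20.5%. This gave a log2 fold change of 0.17 (SE 0.047), an unadjusted p of 0.00358 that ranked 481st among all genes, and an adjusted p of 0.106 by edgeR with Benjamini-Hochberg adjustment. A 2-sided exact permutation test of the group means gave p = 0.0159, where the smallest possible value is 0.00794. DESeq2 gave an adjusted p of 0.0117 (3.39% of all genes passed with it) and limma voom with sample weights 0.0241. Without control library 4, which had the highest Lipe of its group, the edgeR log2 fold change was 0.20 with an adjusted p of 0.0327, and without both control library 4 and KO library 1 it was 0.19 with an adjusted p of 0.0415. Leaving out each of the other libraries gave adjusted p-values up to 0.259.

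Mgll, the monoglyceride lipase, lies on the plus strand of chromosome 6 (88724412 to 88828360) and differed from the other lipases in the sign of its difference. The CPM of replicates 1 to 5 were 583, 592, 602, 484 and 606 in control and 465, 515, 518, 565 and 573.5 in KO cultures. All 5 KO libraries were below the control median. Control library 4 was low and lay near the bottom of the KO range, above KO library 1 only. The means were 573.5 ± 50.9 and 527 ± 43.9 CPM (SD, n = 5), and the log2 fold change was -0.12 (SE 0.071, edgeR Benjamini-Hochberg adjusted p = 0.565). Without control library 4 it was -0.17, and without KO library 1, the lowest of all, it was -0.08, neither past the limit (adjusted p of 0.145 and 0.747).

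The regulators of PNPLA2 showed small differences. Abhd5, the co-activator, lies on the plus strand of chromosome 9 (122351608 to 122381524). In replicates 1 to 5, control cultures gave 626, 615, 592, 559 and 616 CPM and KO cultures 584, 620.3, 618, 681 and 659.7 CPM. KO libraries 4 and 5 lay above all control libraries and the others within their range. The genotypes differed by 0.07 on the log2 scale (SE 0.049, edgeR Benjamini-Hochberg adjusted p = 0.644), and by 0.05 without KO library 4.

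G0s2, the inhibitor, is a short gene on the minus strand of chromosome 1 (193272161 to 193273217) and had the tightest control values of the 9, with a coefficient of variation of 2.98%. Control libraries 1 to 5 stood at 621, 673, 645, 648 and 660.0 CPM, and KO libraries 1 to 5 at 709, 692, 759, 657 and 749.8 CPM. Each KO library except library 4 lay above the highest control library. The means were 649 ± 19.4 and 713 ± 41.8 CPM (SD, n = 5), 9.86% higher in KO with an interval from 2.57% to 17.7%. The log2 fold change of 0.14 (SE 0.046) had an unadjusted p of 0.0112 and an adjusted p of 0.207 by edgeR with Benjamini-Hochberg adjustment, and the 2-sided exact permutation test gave p = 0.0238. DESeq2 and limma voom gave adjusted p-values of 0.111 and 0.138.

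Plin1, the droplet coat protein that gates access of the lipases, lies on the minus strand of chromosome 7 (79720218 to 79732903). The CPM of replicates 1 to 5 were 1133, 1207, 1118, 1146 and 1090.3 in control and 1180.5, 1175, 1241.5, 1127 and 1246.5 in KO cultures. KO libraries 3 and 5 were above all control libraries, and the other KO libraries were not. The genotypes differed by 0.07 on the log2 scale (SE 0.043, edgeR Benjamini-Hochberg adjusted p = 0.608), and the interval ran from 1.75% below to 11.9% above control.

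Of the β-adrenergic receptors, Adrb3 lies on the minus strand of chromosome 8 (27225776 to 27250616). In replicates 1 to 5, control cultures gave 108, 130.3, 124, 97.1 and 111 CPM and KO cultures 96.6, 112, 114, 104 and 122 CPM, so that the KO range lay almost wholly inside the control range. The genotypes differed by -0.06 on the log2 scale (SE 0.081, edgeR Benjamini-Hochberg adjusted p = 0.881), with an interval from 14.9% below to 8.61% above control. It was -0.11 without control library 4 and -0.0034 without control library 2. Adrb1, on the plus strand of chromosome 19 (56722199 to 56733113), was barely detected, with 13, 15, 23, 21 and 22 counts in control libraries 1 to 5 and 20, 23, 22, 19 and 18 counts in KO libraries 1 to 5. At this depth its interval, from 17.1% below to 51.1% above control, was too wide to show a difference of the size seen for the other genes (log2 fold change 0.16, or 0.03 to 0.26 with libraries left out singly, edgeR Benjamini-Hochberg adjusted p = 0.852).

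Pde3b, through which insulin lowers cyclic AMP, lies on the plus strand of chromosome 7 (114415281 to 114539251). Control libraries 1 to 5 stood at 672, 670.2, 565, 746 and 639.9 CPM, and KO libraries 1 to 5 at 728, 773, 677, 716 and 731 CPM. All 5 KO libraries were above the control median, but only KO library 2 exceeded control library 4. The means were 659 ± 65.5 and 725 ± 34.3 CPM (SD, n = 5), and the log2 fold change was 0.14 (SE 0.065, edgeR unadjusted p = 0.0518 and Benjamini-Hochberg adjusted p = 0.429). Without control library 4 the log2 fold change was 0.19 and without control library 3 it was 0.09, with adjusted p-values of 0.107 and 0.657.

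**Figure D3:**
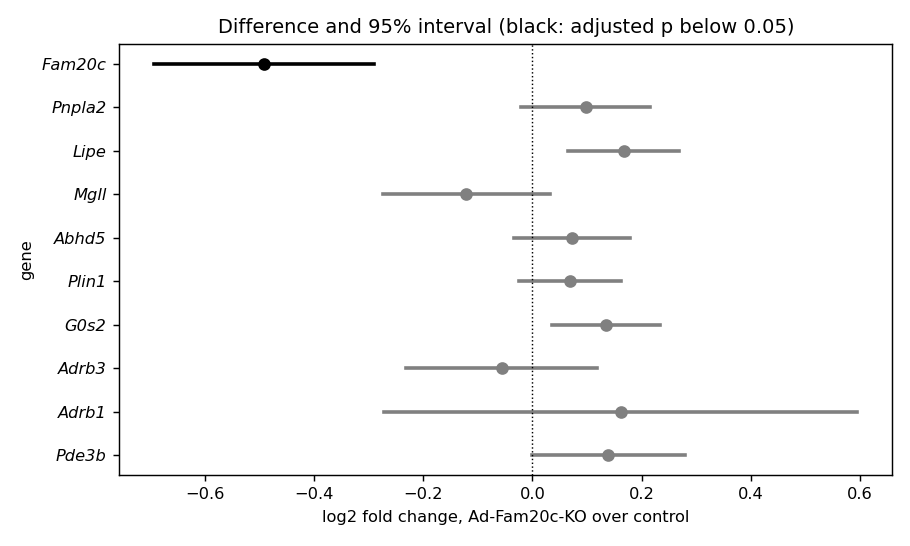
Log2 fold change of Ad-Fam20c–KO over control (horizontal axis) for the 9 lipolysis genes and Fam20c, with 95% intervals from edgeR's quasi-likelihood fit, in black where the adjusted p is below 0.05 and in grey otherwise. Fam20c, at -0.49, is the only gene in black, and the intervals of Lipe and G0s2 are the only grey ones that leave out 0.

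Exons of Lipe, Mgll, Abhd5 and Adrb3 overlap a gene on the opposite strand in the annotation, and the strand setting of the counting is not given. The overlapping gene had 457 counts over all libraries against 257189 for Lipe, 325 against 120636 for Mgll, 64 against 134927 for Abhd5, and 570 against 24576 for Adrb3.

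Ratios within a library do not depend on how libraries are scaled to each other. The log2 ratio of the co-activator Abhd5 to the inhibitor G0s2 was -0.21 to 0.01 in control and -0.30 to 0.05 in KO libraries, and that of Pnpla2 to G0s2 was 1.90 to 2.08 in control and 1.87 to 2.12 in KO libraries, so both balances overlapped throughout. Lipe to Plin1 overlapped as well (-0.08 to 0.07 in control and -0.01 to 0.13 in KO libraries), as did Adrb3 to Adrb1. The last ratio, of the lipase that opens the sequence to the lipase that closes it, set 2 genes with differences of opposite sign against each other. Their log2 fold changes were 0.10 for Pnpla2 and -0.12 for Mgll, and neither passed the edgeR test. Pnpla2 to Mgll was 2.17, 2.26, 2.12, 2.32 and 2.10 on the log2 scale in control libraries 1 to 5 and 2.48, 2.37, 2.49, 2.34 and 2.38 in KO libraries 1 to 5. The groups did not overlap, although KO library 4 and control library 4 lay close together, and the means of 2.19 ± 0.097 and 2.41 ± 0.068 (SD, n = 5) differed by 0.22. The difference was 0.19 to 0.25 with each library left out in turn, and 0.23 without control library 4 and KO library 1. Of the 5 ratios computed, this was the only one without overlap, and no test was made. The share of gene pairs without overlap over all genes was not computed, so the separation cannot be called unusual.

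**Figure D4:**
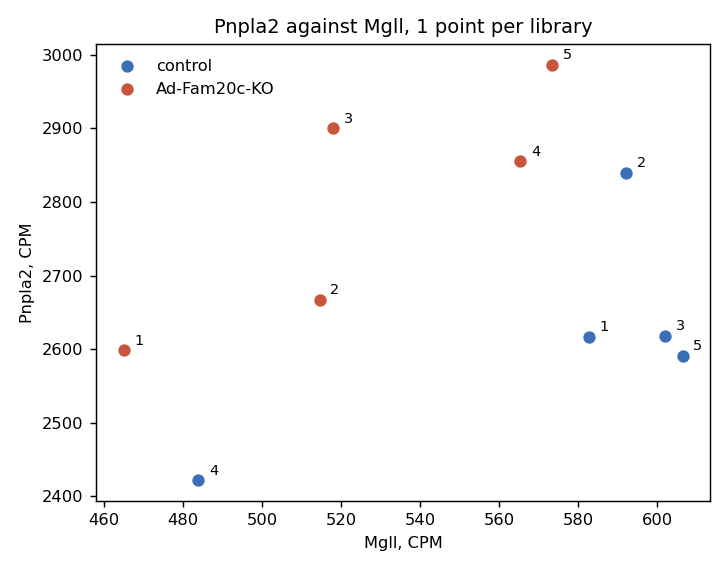
Pnpla2 against Mgll in CPM, with 1 point per library numbered by replicate, for control (blue) and Ad-Fam20c–KO (red) cultures. The axes do not start at 0. At a like level of Mgll the KO libraries lie above the control libraries, and control library 4 and KO library 1 are the lowest in Mgll of their groups.

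The genes also varied together between libraries of the same genotype. After the group means were taken off, Mgll followed Abhd5 (Pearson r = 0.89 over 10 libraries, given as a description) and Pnpla2 followed Adrb3 (r = 0.81), while Lipe ran against Mgll (r = -0.67). Control library 4 and KO library 1 stood out here, each with the lowest Pnpla2, Mgll, Abhd5 and Adrb3 of its group. Without them the correlation of Mgll with Abhd5 was 0.71, that of Pnpla2 with Adrb3 0.59, and that of Lipe with Mgll -0.08. Other pairs changed sign without them, such as Pnpla2 with Lipe (-0.22 to 0.60) and Lipe with Adrb3 (-0.21 to 0.73). A second set, Lipe with Plin1, had r = 0.63 over all libraries and 0.91 without these libraries, and Plin1 with G0s2 had 0.77 both with and without them. Within a library all genes share its depth and cell make-up, and the part of these in the correlations was not tested.

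Among 10661 other genes whose log2 CPM averaged 2 or more, those most like each member over the 10 libraries were sought. Pde3b was close to Lpin1, a gene of glycerolipid synthesis (r = 0.98). Lipe was closest to Klhl12 and the metallothionein Mt1 (0.98 and 0.96), Pnpla2 to Nupr1 and the propionyl-CoA carboxylase gene Pccb (0.97 for each), and G0s2 to Krt79 and Bbc3 (0.98 and 0.95). Mgll was closest to Lasp1 and Tmem120b (0.98 and 0.97), Abhd5 to Chp1 and Rtn4rl1 (0.97 and 0.95), Plin1 to Por and Phldb1 (0.96 and 0.89) and Adrb3 to Npepl1 and Trim32 (0.94 for each). The values for Adrb1 (0.93 with Fez1, 0.90 with Acbd6) rest on few counts. With the group means taken off, the pairs named here had r of 0.85 (Plin1 with Phldb1) to 0.97 (Pde3b with Lpin1). All are the highest values out of 10661 genes over only 10 libraries. A search of this size gives high values without any link between genes, so they show no relation, and no test was made.

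The 9 genes belong to a wider pathway, for which 98 other genes were listed and 87 could be tested. Of these, 3 rose (Adra2a, Adora1 and Plin5), where 0.308% of all genes did, and 4 fell (Npy1r, Adcy4, Akap12 and Pde4b), where 1.86% of all genes did, together 8.05% against 2.17% of all genes. The list was chosen with earlier results of these data known, so these shares cannot show an excess of calls in the pathway. The median log2 fold change of the 87 was 0.00045, with 44 above and 43 below 0. DESeq2 passed 10 of the 87, where 3.39% of all genes passed with it. For all 7 genes called by edgeR the groups did not overlap, as for 3.97% of all genes. The 7 were picked by their adjusted p in these same libraries, so this adds no separate support.

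Receptors that couple to inhibitory G proteins and restrain lipolysis were found in both directions: Adra2a and Adora1 rose and Npy1r fell. Adora1, the adenosine A1 receptor, stood at 344, 351, 321, 363 and 337 CPM in control replicates 1 to 5 and at 399, 407, 388, 374 and 411 CPM in KO replicates 1 to 5, with every KO library above every control library. The genotypes differed by 0.20 on the log2 scale (SE 0.043, edgeR Benjamini-Hochberg adjusted p = 0.0247). Exons of Adora1 overlap Mybph, which had 143 counts in all against 80679. Adra2a, the α2A-adrenergic receptor, was low, with 11 to 17 counts in control and 20 to 30 in KO libraries, or 0.600 ± 0.128 and 1.15 ± 0.147 CPM (SD, n = 5), and the log2 fold change was 0.94 (edgeR Benjamini-Hochberg adjusted p = 0.0231). Plin5, a droplet protein that binds PNPLA2 and ABHD5 and is typical of oxidative tissue, stood at 74.3, 79.2, 70.7, 71.4 and 73.8 CPM in control replicates 1 to 5 and at 82.0, 85.2, 94.4, 88.7 and 99.1 CPM in KO replicates 1 to 5. It rose by 0.28 on the log2 scale (SE 0.055, edgeR Benjamini-Hochberg adjusted p = 0.0170).

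Of the genes that fell, Pde4b, a cyclic AMP phosphodiesterase, stood at 9.07, 9.49, 11.01, 13.2 and 10.8 CPM in control replicates 1 to 5 and at 6.99, 6.15, 6.28, 4.95 and 4.99 CPM in KO replicates 1 to 5, all below the controls. It fell by 0.87 on the log2 scale (SE 0.12, edgeR Benjamini-Hochberg adjusted p = 0.00206). Akap12, which anchors protein kinase A near β-receptors, had 90.2 to 103 CPM in control and 64.2 to 77.5 CPM in KO libraries, a log2 fold change of -0.38 (edgeR Benjamini-Hochberg adjusted p = 0.00317). Adcy4, an adenylyl cyclase, had 4.61 to 5.36 CPM in control libraries, 4.37 CPM in KO library 1 and 2.66 to 3.26 CPM in the other KO libraries, a log2 fold change of -0.68 (edgeR Benjamini-Hochberg adjusted p = 0.0159). Npy1r, a neuropeptide Y receptor, had 16 to 25 counts in control and 2 to 14 in KO libraries, a log2 fold change of -1.43 (edgeR Benjamini-Hochberg adjusted p = 0.0326).

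The endothelial marker sum also differed between the genotypes, at 186 to 233 CPM in control and 80.7 to 120 CPM in KO libraries. The groups did not overlap in that sum. With the mean log2 CPM of the same markers as a covariate, the edgeR adjusted p of the 7 genes (Benjamini-Hochberg) was 0.294 to 0.940. The log2 fold changes of Adcy4, Pde4b and Plin5 turned to 0.10, 0.42 and -0.08, those of Adra2a and Npy1r were nearer 0 at 0.51 and -0.44, and those of Adora1 and Akap12 were larger at 0.28 and -0.47. Fam20c lost its call in the same fit (adjusted p = 0.368) at a larger log2 fold change of -0.68. Genotype and the endothelial marker level cannot be told apart here. When libraries were left out singly, the edgeR adjusted p (Benjamini-Hochberg) stayed at 0.00192 to 0.00885 for Pde4b and 0.00362 to 0.0119 for Akap12. It exceeded 0.05 for Adora1 (up to 0.0784) without control library 1, 3 or 5 or KO library 2 or 5, for Adra2a (up to 0.0645) without control library 1 or 2 or KO library 2, 4 or 5, for Plin5 (up to 0.0536) without control library 3 or 5, for Adcy4 (up to 0.0581) without KO library 2 or 4, and for Npy1r (up to 0.103) without any library but control library 5 or KO library 3.

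**Figure D5:**
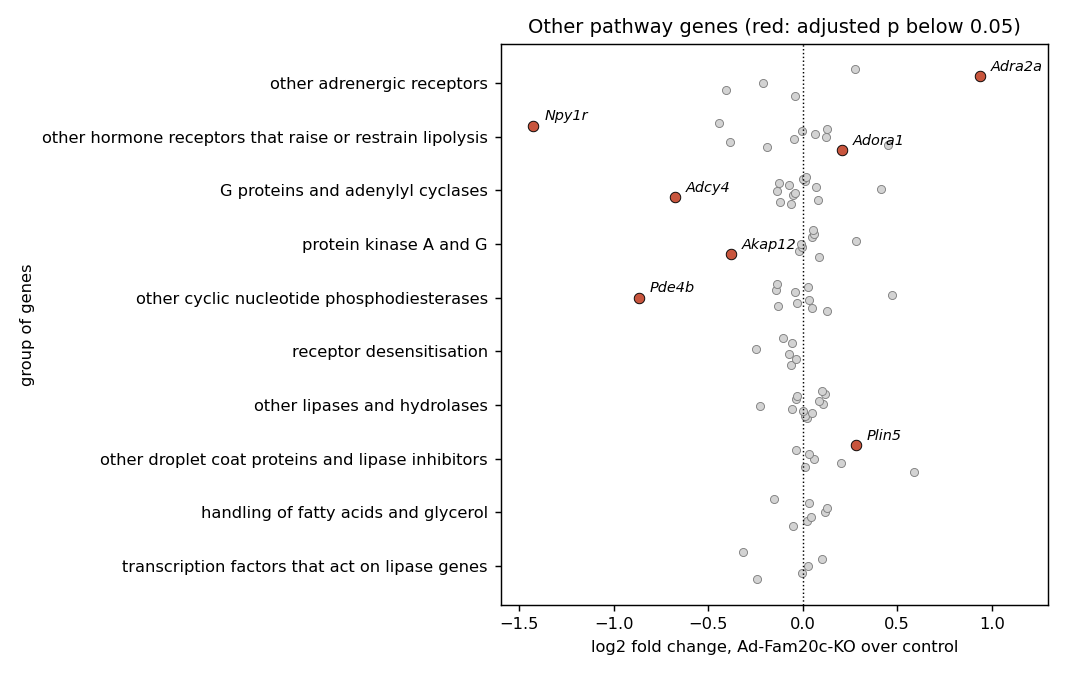
Log2 fold change of Ad-Fam20c–KO over control (horizontal axis) for 87 other genes of the lipolysis pathway, 1 point per gene, grouped by role. The 7 genes with an adjusted p below 0.05 are red and named (3 above and 4 below 0), and the grey points gather around 0.

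By role, calls were few, where 0.308% of all genes rose and 1.86% fell. Groups of 5 to 14 genes are too small to set against these shares. Of 5 other adrenergic receptors tested, 1 rose (Adra2a), and Adra1a, the most abundant, had 19.6 ± 2.02 and 19.1 ± 2.97 CPM (SD, n = 5, control and KO). Of 11 receptors for other hormones, 1 rose and 1 fell. Among 14 G proteins and adenylyl cyclases only Adcy4 fell, and Gnas, the stimulatory G protein, had 812 ± 15.9 and 813 ± 13.3 CPM (SD, n = 5). Of 9 protein kinase A and G genes only Akap12 fell, and the regulatory subunit Prkar2b, the most abundant, had 648 ± 27.1 and 675 ± 40.4 CPM (SD, n = 5). Of 11 phosphodiesterases only Pde4b fell, while Pde1a, the most abundant, had 40.1 ± 1.05 and 41.4 ± 1.57 CPM (SD, n = 5).

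Among 6 receptor kinases and arrestins 0 passed, where 2.17% of all genes did, although all 6 log2 fold changes were below 0 (median -0.07). Grk3 had 4.08 ± 0.601 and 3.44 ± 0.553 CPM (SD, n = 5), and Arrb1, the most abundant, 79.4 ± 14.1 and 75.9 ± 15.5 CPM (SD, n = 5). Among 12 other lipases and hydrolases 0 passed as well. Pnpla8, which had the smallest p of them, stood at 356 ± 12.1 and 382 ± 19.1 CPM (SD, n = 5), and Ces1d, a carboxylesterase that also cleaves triglyceride, at 468 ± 45.6 and 449 ± 18.4 CPM (SD, n = 5).

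Among 7 other droplet proteins and lipase inhibitors only Plin5 rose in edgeR, where 0.308% of all genes did and 2.17% passed in either direction. Cidea, a droplet protein typical of brown fat and named after its values were seen, had an adjusted p of 0.0586 by edgeR and 0.00274 by DESeq2, both with Benjamini-Hochberg adjustment. It passed in only 7 of the 20 alternative fits. Cidec, which drives droplet fusion, was among the most abundant transcripts at 3057 ± 81.9 and 3085 ± 74.3 CPM (SD, n = 5). Of 7 genes that carry or activate fatty acids or move glycerol 0 passed. Fabp4, the main fatty acid carrier of adipocytes, had a log2 fold change of 0.12 (SE 0.051), with an adjusted p of 0.387 by edgeR and 0.0351 by DESeq2, both with Benjamini-Hochberg adjustment. Fabp5 had 1681 ± 123 and 1836 ± 88.2 CPM (SD, n = 5). Of 5 transcription factors that act on lipase genes 0 passed: Snai1, a repressor of Pnpla2, had 11.2 ± 0.731 and 9.03 ± 1.01 CPM (SD, n = 5), with an adjusted p of 0.0951 by edgeR and 0.0484 by DESeq2, and Pparg had 225 ± 7.29 and 242 ± 4.62 CPM (SD, n = 5), with 0.218 by edgeR and 0.0509 by DESeq2.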

How the data were processed

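SMARTer v4 and Nextera XT kits were used for the libraries. Per the study's methods, reads were mapped with STAR to GRCm38.p6 and fragments were counted per gene with featureCounts, and the authors deposited the raw counts without normalization. The strand setting is not given in the sources used here.

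These counts were analysed in R 4.3.3 with edgeR 4.0.16. Low genes were dropped by filterByExpr at a minimum count of 10, libraries were scaled by TMM, and the genotypes were compared by quasi-likelihood F-tests, with p-values adjusted by Benjamini-Hochberg over all genes tested (limit 0.05). CPM are counts over the TMM-scaled library size. Log2 CPM used a prior count of 2. Intervals are 95%. FPKM used exon lengths of GENCODE M21 (GRCm38). All 9 genes matched by identifier but with another version number, so the table's annotation was not M21 and positions and lengths may differ slightly. Exact permutation tests were 2-sided over all 252 splits.

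The members and the gene lists were chosen with earlier results of these data known. Besides the 9 genes and Fam20c, the genes named are those of the wider list that passed, the gene with the smallest p and the most abundant gene of each role, the markers that passed, and the 2 genes most like each member; 1 of these is not reported here. The scripts were tested on simulated data. Alternatives were DESeq2 1.42.0, limma 3.58.1 voom, other size factors and filters, a replicate block, marker covariates and each library left out. Correlations without control library 4 and KO library 1 were added after the data were seen. At 18949106 to 26237825 counts per library, counting error matters for Adrb1, Adra2a and Npy1r.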

Additional observations from a re-analysis of the deposited data

Results flagged for a closer look

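In 8 of 86 groups of 5 libraries, the highest or lowest library lay farther from the rest than Dixon's 95% critical ratio of 0.71 allows, where chance gives about 4.3. Mgll was low in control library 4 at 483.9 CPM, against 582.7 to 606.4 CPM in the other control libraries. Ces1d was low in the same library at 388.1 CPM (470.5 to 494.1 in the others), and Arrb1 was high in it at 103.8 CPM (66.85 to 76.05 in the others). Arrb1 was also high in KO library 1 at 102.7 CPM (64.51 to 74.87 in the other KO libraries), where Adra1a was low at 13.94 CPM (19.51 to 21.67 in the others). These 5 values come from the libraries that stood apart on the first principal component. The remaining 3 were Gnas in KO library 2 at 789.6 CPM (815.6 to 823.3 in the others), Pnpla8 in control library 3 at 335.5 CPM (357.8 to 366.2), and the summed pericyte and smooth muscle markers in KO library 3 at 63.72 CPM (82.74 to 89.27).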

How the results depend on the processing

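Under 20 alternative fits, 173 of 179 values of the 9 genes kept their direction and their side of the limit. Lipe passed in 4 fits, with log2 fold changes of 0.17 (DESeq2), 0.18 (limma voom), 0.20 (without control library 4) and 0.19 (without control library 4 and KO library 1). With the endothelial covariate, Pnpla2 turned to -0.30 and Abhd5 to -0.38, neither past the limit, and among other genes Adcy4 turned to 0.10, Arrb1 to 1.3 (edgeR Benjamini-Hochberg adjusted p = 0.0356, past the limit), Cidec to -0.0012, Grk3 to 0.62, Pde4b to 0.42, Plin5 to -0.075, Pnpla8 to -0.15 and Prkar2b to -0.39. Adra1a passed in that fit (edgeR Benjamini-Hochberg adjusted p = 0.0302). Control library 4 and KO library 1 had both the highest endothelial sum and the highest Arrb1 of their groups, so the covariate also carries what set these libraries apart. Without control library 4 and KO library 1, Adra1a turned to 0.017 and Cidec to -0.0048. Gnas turned to -0.0038 with upper quartile factors, -0.0015 with the 1 CPM filter and -0.0025 with the adipocyte covariate. With each library left out in turn, Adra1a ran from -0.093 to 0.052, Arrb1 from -0.19 to 0.054 and Gnas from -0.0096 to 0.018. The causes were not tested.

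Leaving out each library gave 164 to 323 genes lower and 19 to 119 higher over the whole table (265 and 44 with all libraries), and for Lipe log2 fold changes of 0.15 to 0.20. In the wider list it gave 2 to 4 lower and 1 to 6 higher. The endothelial covariate gave 86 lower and 254 higher genes (2 and 6 in the wider list). Genes called higher numbered 145 without control library 4 and KO library 1 (6 in the wider list), 111 with limma voom (5) and 125 with DESeq2 (5). With the longest transcript as length, control FPKM were 997 for Pnpla2, 404 for Plin1, 299 for Lipe, 190.5 for Abhd5, 144 for Mgll, 100.2 for Pde3b and 40.8 for Adrb3, so that Abhd5 stood above Mgll. Replicate numbers are shared by the groups but did not pair the libraries (correlations of deviations -0.25 to 0.26), and a fit with the replicate block gave 193 lower and 21 higher genes, 0 higher in the wider list, and 0.17 for Lipe (edgeR Benjamini-Hochberg adjusted p = 0.293). Under the block Adcy4 (adjusted p = 0.0659), Plin5 (0.0636), Adora1 (0.0948) and Adra2a (0.0995) lost their calls. Adrb1, Adra2a and Npy1r were too low for the 1 CPM filter and rest on few counts, and transcript levels do not measure phosphorylation or lipase activity.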

Other observations

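Among the thermogenic adipocyte markers, 1 of 6 rose (Ucp1), where 0.308% of all genes did. The log2 fold changes of Ppargc1a, Elovl3 and Dio2 were 0.19, 0.028 and 0.023, and those of Prdm16 and Cox8b were -0.040 and -0.045. The edgeR adjusted p of these other markers (Benjamini-Hochberg) was 0.484 to 0.988. Ucp1, the uncoupling protein of brown and beige adipocytes, stood at 11.4, 12.04, 13.5, 24.998 and 17.5 CPM in control replicates 1 to 5 and at 28.6, 27.0, 24.0, 31.98 and 33.9 CPM in KO replicates 1 to 5, a log2 fold change of 0.87 (edgeR Benjamini-Hochberg adjusted p = 0.0284). Control library 4 lay inside the KO range. The droplet protein gene Cidea, also typical of brown fat, showed the same arrangement, at 47.0, 54.1, 51.5, 87.2 and 60.7 CPM in control replicates 1 to 5 and at 105, 83.8, 81.7, 83.6 and 97.6 CPM in KO replicates 1 to 5. Its log2 fold change of 0.59 had an adjusted p of 0.0586 by edgeR, 0.00274 by DESeq2 and 0.0027 by limma voom, all with Benjamini-Hochberg adjustment. It passed in only 7 of the 20 alternative fits, where its Benjamini-Hochberg adjusted p reached 0.15. Cidea was named after its values were seen. The summed thermogenic markers overlapped, at 512 to 599 CPM in control and 519 to 633 CPM in KO libraries.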
